A study of Mus musculus with 11 samples.

Results

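Genes of cholesterol synthesis and of its control by SREBP2 were followed in RNA from mouse hepatocytes, measured on 11 expression arrays. The list held 28 genes, named for their place in the pathway. Of these, 25 had a row of the deposited table annotated to them alone, and each of the 25 had a single such row. Acat2 and Soat2 had no row under their symbols in the annotation used, and the row of Tm7sf2 was also annotated to Vps51, so these 3 were not analysed here. All 25 genes passed the filter on low signal that left 18672 of 30743 genes for testing, and their log2 signals lay between 7.09 and 17.25.

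The double KO group (n = 3) carried a liver-specific knockout of Nemo, which the labels call NemoLPC-KO, together with a knockout of Cxcr6. The Nemo KO group (n = 3) carried the liver-specific knockout of Nemo alone, the Cxcr6 KO group (n = 3) the Cxcr6 knockout alone, and the wildtype group (n = 2) neither. All 11 samples were hepatocytes of male mice aged 12 weeks. The source names mark double KO and Nemo KO as cre+ and Cxcr6 KO and wildtype as cre-, and they place double KO and Cxcr6 KO under Nemo_CXCR6 and the other groups under Nemo. Cre status therefore changes within each of these lines, while Cxcr6 loss and mouse line cannot be told apart. The labels name neither the promoter that drives Cre nor the other alleles of the cre- mice. They call the replicates biological without saying that each is a separate mouse, so p-values measure only the spread between these samples.

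The median log2 signal of an array was 5.19 to 5.38, and arrays carry no read depth, so the number of arrays limits the precision. The row of Ikbkg, the gene of Nemo, had a mean log2 signal of 9.05 ± 0.39 in double KO, 9.32 ± 0.13 in Nemo KO and 9.15 ± 0.03 in Cxcr6 KO (SD, n = 3 each), and of 9.24 ± 0.32 in wildtype (n = 2). Cxcr6 lay between 4.94 and 5.56 on all 11 arrays, near the array medians. Whether these rows cover the deleted parts is not known, so they do not check the genotypes. The 12 tested hepatocyte markers had a log2 summed signal of 22.41 to 22.53 in double KO, 22.41 to 22.53 in Nemo KO, 22.53 to 22.61 in Cxcr6 KO and 22.51 to 22.55 in wildtype. The wildtype arrays stood apart from each other in the genes described here, so every comparison with wildtype is given with both arrays and with each of them left out.

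Cholesterol is made in the hepatocyte from acetyl-CoA through mevalonate, the isoprenoid diphosphates, squalene and lanosterol. SREBP2, the product of Srebf2, is a membrane-bound transcription factor. When sterols are low, Scap escorts it to the Golgi, where it is cut, and the freed part enters the nucleus and switches on nearly every enzyme of the pathway. When sterols are high, the Insig proteins hold Scap and SREBP2 in the endoplasmic reticulum. Insig1 is itself an SREBP target, whereas mouse liver makes an Insig2 transcript that insulin represses. SREBP2 binds sterol regulatory elements in promoters, often beside sites of NF-Y, a factor that recognises the CCAAT box.

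The promoters show what the enzymes have in common apart from their signals. RefSeq windows of GRCm38.p6 were found for 23 of the 28 genes, and the 250 bases before each annotated start were searched on both strands for CCAAT and for TCACNCCAC, a core of the sterol regulatory element. Neither motif contains the other. Of 16 enzymes of the pathway with a window, 15 held at least 1 CCAAT box (93.8%), against 4335 of 10825 genes tested on the arrays that have a window (40%) and 10133 of all 27025 genes in the table (37.5%). Over all the listed genes with a window, 19 of 23 held the box (82.6%). Counted by window, it was 19 of 30 for the listed genes (63.3%), against 33.8% of all windows in the table. Acat2 was the enzyme with none. The sterol core matched in 1 of the 16 enzymes, Hmgcs1 (6.25%), against 1.24% of the genes tested. A match is only a match of letters, and a gene with several annotated starts was counted if any of its windows held the motif.

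The upstream sequences are shown for 6 genes that the values below return to, 5′ to 3′ along the gene and ending at the annotated start. They are Hmgcs1, Msmo1 and Nsdhl for the enzymes, Insig1 and Insig2 for the brake, and Abcg8 for sterol export. Capitals mark CCAAT, its reverse complement ATTGG, and the sterol core.
Hmgcs1 (chr13:119690101-119690350, plus strand): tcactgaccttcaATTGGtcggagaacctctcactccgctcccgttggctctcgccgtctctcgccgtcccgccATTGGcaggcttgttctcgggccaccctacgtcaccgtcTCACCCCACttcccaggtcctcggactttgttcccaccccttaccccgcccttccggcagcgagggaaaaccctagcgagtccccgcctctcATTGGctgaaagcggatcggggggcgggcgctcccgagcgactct
Msmo1 (chr8:64733579-64733828, minus strand): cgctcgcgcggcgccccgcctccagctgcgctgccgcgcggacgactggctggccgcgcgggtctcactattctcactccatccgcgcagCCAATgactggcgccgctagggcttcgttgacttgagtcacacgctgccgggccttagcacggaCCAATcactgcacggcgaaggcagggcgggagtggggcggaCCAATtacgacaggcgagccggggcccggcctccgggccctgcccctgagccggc
Nsdhl (chrX:72918271-72918520, plus strand): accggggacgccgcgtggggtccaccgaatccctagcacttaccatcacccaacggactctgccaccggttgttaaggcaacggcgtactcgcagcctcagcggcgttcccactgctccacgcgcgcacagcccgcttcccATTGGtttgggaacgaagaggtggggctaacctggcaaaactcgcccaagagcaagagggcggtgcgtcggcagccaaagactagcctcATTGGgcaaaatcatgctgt
Insig1 (chr5:28071162-28071411, plus strand): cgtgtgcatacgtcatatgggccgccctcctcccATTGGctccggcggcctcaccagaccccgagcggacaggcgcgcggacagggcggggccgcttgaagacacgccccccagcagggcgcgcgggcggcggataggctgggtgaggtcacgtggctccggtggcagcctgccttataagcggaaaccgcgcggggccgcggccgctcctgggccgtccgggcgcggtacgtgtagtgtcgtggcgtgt
Insig2 (chr1:121332590-121332839, minus strand): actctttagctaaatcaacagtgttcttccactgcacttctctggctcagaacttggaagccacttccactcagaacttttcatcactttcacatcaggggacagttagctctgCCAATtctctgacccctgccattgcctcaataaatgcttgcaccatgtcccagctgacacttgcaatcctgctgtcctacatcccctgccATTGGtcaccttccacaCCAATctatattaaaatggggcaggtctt
Abcg8 (chr17:84682871-84683120, plus strand): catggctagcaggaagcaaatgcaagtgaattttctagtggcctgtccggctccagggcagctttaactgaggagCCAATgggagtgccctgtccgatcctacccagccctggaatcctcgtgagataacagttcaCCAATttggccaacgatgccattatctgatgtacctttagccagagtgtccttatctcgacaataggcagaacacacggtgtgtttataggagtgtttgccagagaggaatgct
Hmgcs1 held the sterol core 137 bases before its start, between inverted CCAAT boxes at 176 and 45 bases, with a further inverted box at 237. Msmo1 held 3 CCAAT boxes along the gene and Nsdhl 2 inverted ones. For a gene with several annotated starts, the window with the most CCAAT boxes is shown. Of the 3 annotated starts of Insig2, the one shown held 3 boxes and the others held no match. Of the 2 annotated starts of Abcg8, the one not shown held no match. Insig1 held a single inverted box 216 bases before its start. Abcg5 and Abcg8 are transcribed away from each other, and their windows of 300 bases overlap by 209.

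**Figure D1:**
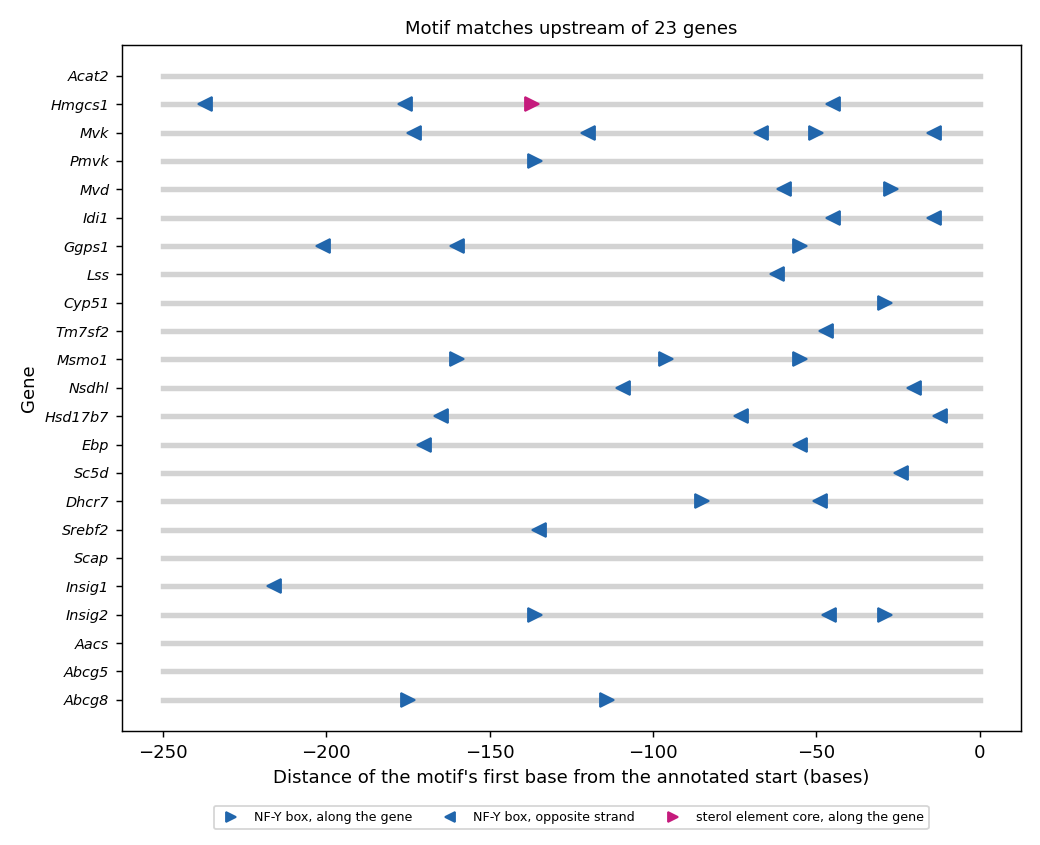
Positions of motif matches in the 250 bases before the annotated start of 23 genes (1 row per gene, x axis in bases from the start). For a gene with several starts, the window with the most NF-Y (CCAAT) boxes is drawn. Blue arrowheads are CCAAT boxes, pointing right along the gene or left on the opposite strand, and the single pink arrowhead is the sterol element core of Hmgcs1. Acat2 and Tm7sf2 are drawn although the arrays gave no value for them.

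Hmgcs1, the cytosolic HMG-CoA synthase, had log2 signals of 16.62, 16.33 and 15.92 in double KO, 17.05, 16.27 and 15.90 in Nemo KO, 17.19, 16.94 and 17.25 in Cxcr6 KO, and 14.62 and 16.64 in wildtype. Every Cxcr6 KO array lay above every double KO and wildtype array, and wildtype replicate 1 was the lowest of the 11. Cxcr6 KO lay wholly above double KO in 24.3% of all genes tested, and wholly above wildtype in 12.8%. Fdps, farnesyl diphosphate synthase, read 14.14, 13.69 and 12.72 in double KO, 13.69, 13.62 and 13.26 in Nemo KO, 14.00, 13.95 and 14.23 in Cxcr6 KO, and 12.07 and 13.56 in wildtype. Fdft1, squalene synthase, read 12.23, 12.01 and 11.21 in double KO, 12.23, 12.15 and 11.58 in Nemo KO, 12.15, 12.13 and 12.54 in Cxcr6 KO, and 10.91 and 11.73 in wildtype. In both genes wildtype replicate 1 was again the lowest array, and double KO overlapped with Nemo KO.

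The mevalonate kinase Mvk spanned 7.65 to 8.16 in double KO, 7.65 to 8.52 in Nemo KO and 8.18 to 9.0 in Cxcr6 KO, with 7.09 and 8.06 in wildtype. The phosphomevalonate kinase Pmvk spanned 9.39 to 10.30 in double KO, 9.42 to 9.90 in Nemo KO and 10.36 to 10.55 in Cxcr6 KO, with 8.43 and 10.06 in wildtype. Both kinases were lower on every double KO array than on any Cxcr6 KO array, as were 24.3% of all genes tested. The decarboxylase Mvd and the isomerase Idi1 departed from the wildtype pattern, since their lowest array was double KO replicate 3, at 7.44 for Mvd and 12.78 for Idi1. Ggps1, which leads into geranylgeranyl diphosphate rather than to squalene, varied least, with a range of 0.40 over the 11 arrays.

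Among the enzymes from squalene to cholesterol, Sqle, squalene epoxidase, had log2 signals of 13.29, 13.04 and 11.80 in double KO, 13.32, 13.60 and 12.38 in Nemo KO, 12.59, 12.61 and 13.01 in Cxcr6 KO, and 10.67 and 12.89 in wildtype. Its range over the 11 arrays was 2.93, the widest of the 17 enzymes. Cyp51, the lanosterol demethylase, read 14.47, 13.99 and 13.60 in double KO, 14.47, 14.69 and 13.67 in Nemo KO, 13.87, 13.86 and 14.14 in Cxcr6 KO, and 12.15 and 13.83 in wildtype. Msmo1, the sterol methyl oxidase, read 10.75, 10.50 and 9.62 in double KO, 10.92, 10.94 and 10.23 in Nemo KO, 10.81, 10.70 and 11.01 in Cxcr6 KO, and 8.78 and 10.39 in wildtype. In all 3 genes the lowest value was in wildtype replicate 1 and the next lowest in double KO replicate 3.

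Nsdhl, a dehydrogenase that acts after Msmo1 in removing sterol methyl groups, read 12.38, 11.80 and 11.41 in double KO, 12.33, 12.00 and 11.82 in Nemo KO, 12.18, 12.24 and 12.52 in Cxcr6 KO, and 9.85 and 12.05 in wildtype. Dhcr7, the reductase that makes cholesterol from its dehydro precursor, read 10.26, 10.26 and 9.51 in double KO, 10.15, 10.39 and 9.78 in Nemo KO, 9.65, 9.52 and 9.89 in Cxcr6 KO, and 7.68 and 10.30 in wildtype. For Dhcr7, wildtype replicate 1 differed from the lowest of the other 10 arrays by -1.84 log2 units, the widest such gap among the 25 genes. The lanosterol synthase Lss and the desaturase Sc5d had the same lowest array, with gaps of -1.27 and -0.94. Ebp, the sterol isomerase, spanned only 0.67 over all arrays, and its lowest array was double KO replicate 3.

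**Figure D2:**
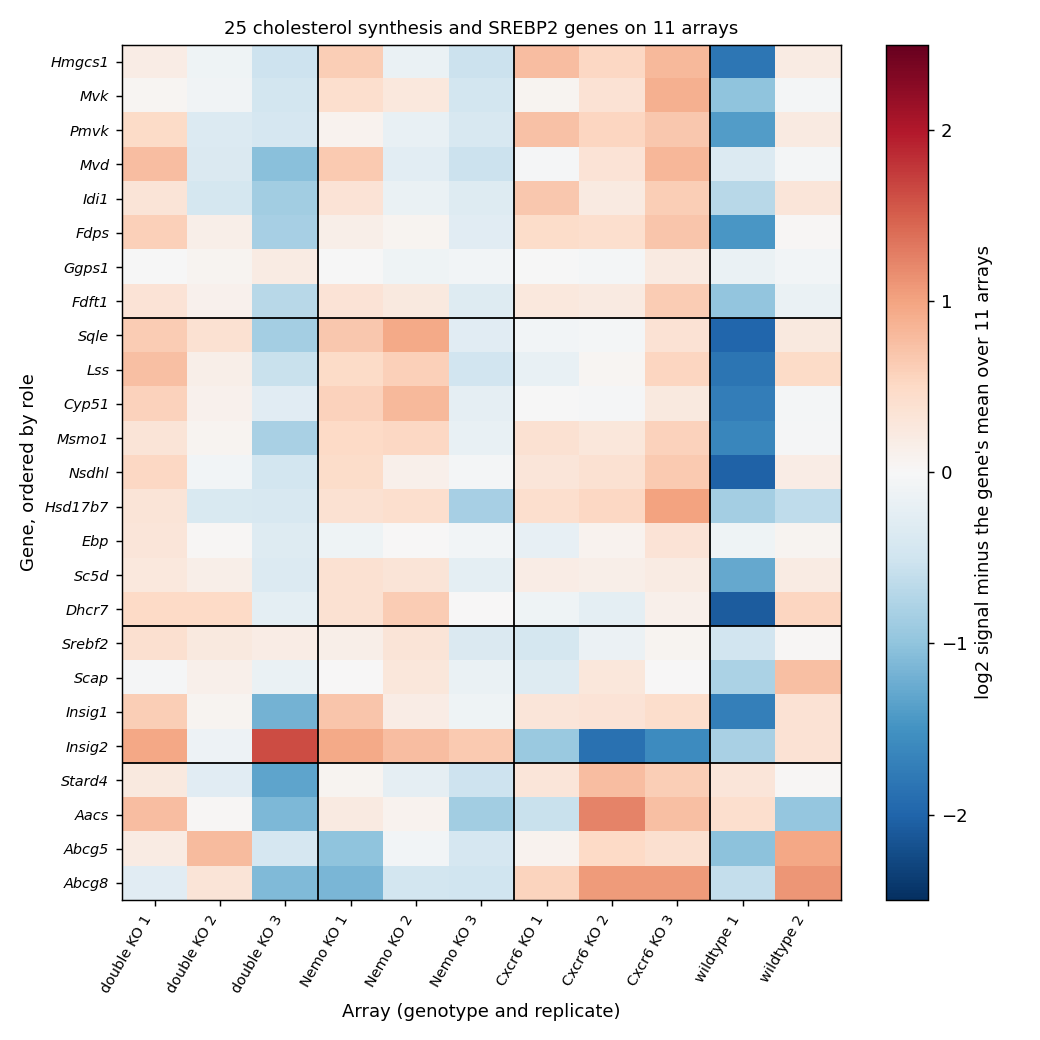
Log2 signal of each of the 25 genes on each of the 11 arrays, minus that gene's mean over the arrays. Red is above the mean and blue below it, vertical lines part the genotypes, and horizontal lines part mevalonate to squalene, squalene to cholesterol, SREBP2 control, and sterol handling. The mostly blue column of wildtype replicate 1 holds the lowest value of 18 genes, and the Insig2 row is blue on all 3 Cxcr6 KO arrays.

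Among the genes that control SREBP2, Insig2 followed another order from the enzymes. It had log2 signals of 15.66, 14.57 and 16.32 in double KO, 15.63, 15.46 and 15.34 in Nemo KO, 13.77, 12.83 and 13.12 in Cxcr6 KO, and 13.87 and 15.05 in wildtype. All 3 Cxcr6 KO arrays were the lowest of the 11, and double KO and Nemo KO overlapped each other. Insig1 did not share this order, with 15.68, 15.12 and 13.88 in double KO, 15.75, 15.25 and 14.95 in Nemo KO, 15.36, 15.40 and 15.50 in Cxcr6 KO, and 13.36 and 15.42 in wildtype. Its 3 Cxcr6 KO values lay close together, inside the double KO range.

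Srebf2 itself read 9.65, 9.51 and 9.44 in double KO, 9.40, 9.58 and 8.90 in Nemo KO, 8.81, 9.11 and 9.32 in Cxcr6 KO, and 8.79 and 9.29 in wildtype. Every double KO array was above every Cxcr6 KO array, as in 13.2% of all genes tested, while both groups overlapped with Nemo KO. Scap had means of 11.20 ± 0.15 in double KO, 11.26 ± 0.22 in Nemo KO, 11.21 ± 0.30 in Cxcr6 KO (SD, n = 3 each) and 11.20 ± 1.08 in wildtype (n = 2). The wildtype mean hides single values of 10.44 and 11.96, the lowest and the highest Scap values of the 11 arrays.

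The genes of sterol handling were less alike. Stard4, a sterol carrier of the cytosol, read 10.96, 10.42 and 9.39 in double KO, 10.79, 10.50 and 10.20 in Nemo KO, 11.02, 11.48 and 11.34 in Cxcr6 KO, and 11.01 and 10.75 in wildtype. Abcg8, which pairs with Abcg5 to export sterols into bile, read 12.41, 13.01 and 11.59 in double KO, 11.55, 12.24 and 12.20 in Nemo KO, 13.26, 13.76 and 13.76 in Cxcr6 KO, and 12.09 and 13.79 in wildtype. Both genes were higher on every Cxcr6 KO array than on any double KO or Nemo KO array (against double KO alone, 24.3% of all genes tested were). Abcg5 did not show this, with 13.43, 14.01 and 12.81 in double KO, 12.22, 13.17 and 12.81 in Nemo KO, 13.31, 13.74 and 13.64 in Cxcr6 KO, and 12.21 and 14.19 in wildtype. Aacs, which feeds acetoacetate into cytosolic lipid synthesis, overlapped between all 4 groups.

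**Figure D3:**
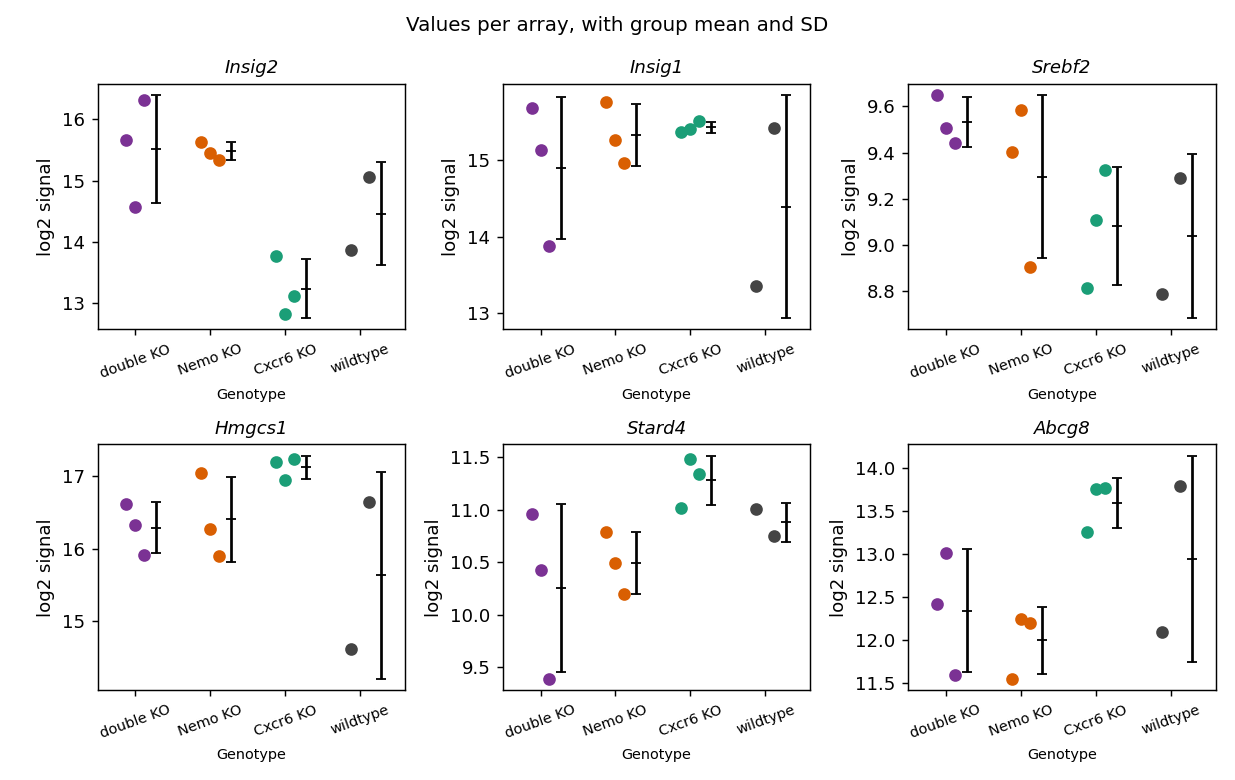
Log2 signal on each array (coloured points) for Insig2, Insig1, Srebf2, Hmgcs1, Stard4 and Abcg8, with the mean and SD of each genotype (black, n = 3, and n = 2 for wildtype). The y axes differ between panels and do not start at 0. Insig2 is the gene whose Cxcr6 KO points all lie below every other point.

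Double KO was set against Cxcr6 KO to ask what Nemo deletion changes where Cxcr6 is missing, inside a single line. Insig2 rose by 2.28 ± 0.45 on the log2 scale (SE, 4.86-fold, limma adjusted p = 0.0241), to 15.52 ± 0.88 in double KO against 13.24 ± 0.48 in Cxcr6 KO (SD, n = 3 each). It was the 1 gene of the 25 called, while 7.3% of all genes tested were called in this comparison (3.38% higher). Insig2 lost the call when double KO replicate 3 was left out (1.88, adjusted p = 0.0754), and likewise without Cxcr6 KO replicate 2 (2.07, adjusted p = 0.0908) or replicate 3 (2.22, adjusted p = 0.094). Its difference stayed between 1.88 and 2.75 whichever array was left out.

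Most of the other genes had lower values in double KO, and none of them passed the test. Of the 25 genes, 20 had values below 0 and 5 above, with a median log2 difference of -0.46, against -0.06 over all genes tested. With each array centred on its median the split became 17 below and 8 above. Stard4 differed by -1.02 ± 0.35 (adjusted p = 0.0948), Abcg8 by -1.25 ± 0.47 (0.118), Idi1 by -0.83 ± 0.34 (0.146), Hsd17b7, the keto-sterol reductase, by -0.80 ± 0.34 (0.16), and Srebf2 by 0.45 ± 0.21 (0.184). The enzymes up to squalene had a median of -0.60 over 8 genes, and those after it -0.08 over 9. The groups did not overlap in 8 genes, against 37.4% of all genes tested. These were Insig2 and Srebf2, higher in double KO (13.2% of all genes), and Hmgcs1, Mvk, Pmvk, Hsd17b7, Stard4 and Abcg8, lower in double KO (24.3%). The median was -0.08 without double KO replicate 3 and -0.71 without double KO replicate 1, where Stard4 was also called (-1.37, adjusted p = 0.04).

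Lists around the pathway also held called genes, to be read against the 7.3% called over all genes. Of 25 tested among 37 other sterol pathway genes, 2 rose and none fell. They were the lipoprotein receptor Lrp1, by 0.69 ± 0.15 (adjusted p = 0.0306), and Lipa, the lysosomal acid lipase that frees cholesterol from its esters, by 0.67 ± 0.15 (0.0371). Of 9 tested LXR target genes, the sterol exporter Abcg1 rose by 0.68 ± 0.10 (0.0137). Its signals were low, 6.67 to 6.88 in double KO and 6.06 to 6.13 in Cxcr6 KO, where the filter level was 5.27. Of 15 tested genes of SREBP1 and fatty acid synthesis, Me1, malic enzyme, fell by 1.68 ± 0.26 (0.0141) and none rose. Of 22 clock and feeding-time genes, 5 fell and 2 rose, and the 3 with the smallest p were Hlf (-1.05 ± 0.20), Rgs16 (-4.75 ± 1.02) and Usp2 (-2.25 ± 0.54), with adjusted p of 0.022 to 0.0405.

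Between these groups, markers of other cell types were also called. Among 13 endothelial markers, 12 rose, with a log2 summed signal of 14.14 to 14.76 in double KO and 13.31 to 13.67 in Cxcr6 KO. Of 11 stellate cell and fibroblast markers 9 rose (11.33 to 12.81 in double KO, 9.48 to 9.85 in Cxcr6 KO), and of 15 macrophage markers 5 rose (12.35 to 13.48 and 10.82 to 11.27). Of 7 cholangiocyte markers 4 rose (9.63 to 10.69 in double KO, 8.75 to 8.95 in Cxcr6 KO), the only erythroid marker tested, Alas2, fell, and none of 4 T, NK and NKT cell, 2 neutrophil or 1 B cell markers was called. The part of other cells, or of the feeding-time genes, in the Insig2, Lrp1, Lipa or Abcg1 results was not tested. In bulk samples fewer cells of a type and less RNA per cell cannot be told apart.

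Nemo KO was set against wildtype to ask the same where Cxcr6 is present. None of the 25 genes was called by limma, against 0.155% of all genes tested. With an intensity trend and robust variances none was called either, against 6 of all genes. An unadjusted p under 0.05 was reached by 4553 of the 18672 genes and by 2 of the 25, Cyp51 and Msmo1. Their log2 differences were 1.29 ± 0.47 (adjusted p = 0.141) and 1.11 ± 0.47 (0.187). The median of the 25 was 0.67, with 21 above 0, against -0.04 over all genes tested. Values were also above 0 in 14 of 15 macrophage markers (median 0.68), 13 of 13 endothelial markers (0.45) and 11 of 11 stellate cell and fibroblast markers (0.33), with none called, and their part in the result was not tested. Insig2 differed by 1.01 ± 0.51 (adjusted p = 0.255), with every Nemo KO array above both wildtype arrays, and by 0.42 without wildtype replicate 1 and 1.60 without replicate 2. No other gene of the 25 kept its groups apart, against 35.9% of all genes tested (11.5% higher in Nemo KO).

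These differences turned on which wildtype array was kept. Without wildtype replicate 2, 9 genes were called higher in Nemo KO, against 1.92% of all genes called higher. They were Hmgcs1, Pmvk, Sqle, Lss, Cyp51, Msmo1, Nsdhl, Sc5d and Dhcr7, with log2 differences from 1.22 ± 0.33 for Pmvk to 2.43 ± 0.61 for Sqle and adjusted p from 0.00913 to 0.0497. Without wildtype replicate 1, none was called (0.997% of all genes) and the median was -0.04, with 11 of 25 genes above 0. In each of these fits a single wildtype array stood for its group and was taken to vary like the other groups.

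Cxcr6 KO was set against wildtype to see what Cxcr6 loss, together with the change of line, alters while Nemo is intact. None of the 25 genes was called by limma, against 0.252% of all genes tested. With the intensity trend none was called either, against 37 of all genes. An unadjusted p under 0.05 was reached by 9 of the 25 and by 2055 of the 18672 genes. Hsd17b7 differed by 1.40 ± 0.38 (adjusted p = 0.19), Hmgcs1 by 1.5 ± 0.53 (0.327) and Insig2 by -1.23 ± 0.51 (0.411). Without wildtype replicate 1 the Hmgcs1 difference was 0.49 and that of Insig2 -1.82, and without replicate 2 they were 2.51 and -0.64. The median of the 25 was 0.76, with 24 above 0, against 0.01 over all genes tested. The groups were apart in 12 genes that were higher in Cxcr6 KO (12.8% of all genes tested) and in Insig2, which was lower (11.1%). Without wildtype replicate 2, Hmgcs1, Pmvk, Nsdhl, Sc5d and Dhcr7 were called higher, by 1.47 to 2.51 (0.65% of all genes). Without wildtype replicate 1 none was called (2.66% of all genes) and the median was 0.13. Clock and feeding-time genes had a median of 0.68, with 15 of 22 above 0 and 12 at an unadjusted p under 0.05 by limma. Values were above 0 in 13 of 15 genes of SREBP1 and fatty acid synthesis (median 0.90). They were below 0 in 13 of 13 endothelial markers (-0.31) and 16 of 17 cell cycle genes (-0.49). None of these lists held a call, and their part in the values of the 25 genes was not tested. This comparison shares its wildtype arrays with Nemo KO against wildtype, and its Cxcr6 KO arrays with double KO against Cxcr6 KO.

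Double KO was set against Nemo KO to see what the same step alters once Nemo is deleted. None of the 25 genes was called by limma, against 0.589% of all genes tested. With the intensity trend none was called either, against 136 of all genes. An unadjusted p under 0.05 was reached by none of the 25 and by 3153 of the 18672 genes. The groups overlapped in all 25 genes, while 23% of all genes tested kept them apart. Insig2 differed by 0.04 ± 0.45 (adjusted p = 0.972), Hmgcs1 by -0.12 ± 0.47 (0.916) and Insig1 by -0.43 ± 0.55 (0.707). The errors are wide enough that these values do not show the genotypes to be alike. The median was -0.12, against 0.04 over all genes tested. With each array centred on its median, 13 of the 25 genes were above 0, against 8 as deposited, while the median of all genes was 0.15. With single double KO or Nemo KO arrays left out, the median of the 25 lay between -0.35 and 0.09. In this comparison 1 of 13 endothelial and 1 of 7 cholangiocyte markers were called higher and Alas2 lower. Values were above 0 in 13 of 13 endothelial markers (median 1.18), 12 of them with an unadjusted p under 0.05 by limma. They were also above 0 in 11 of 11 stellate cell and fibroblast markers (0.61) and 12 of 15 macrophage markers (0.75). The same held for 17 of 17 cell cycle genes (0.56), while 4 of 4 T, NK and NKT cell markers were below 0. The part of these lists in the values of the 25 genes was not tested.

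The interaction is the difference double KO minus Cxcr6 KO less the difference Nemo KO minus wildtype. It was called in none of the 25 genes by limma, with or without the intensity trend, and in 0.0% of all genes tested. An unadjusted p under 0.05 was reached by 5 of the 25, namely Hmgcs1, Mvk, Fdft1, Msmo1 and Hsd17b7, and by 2199 of all genes. Their differences ran from -1.66 ± 0.63 for Msmo1 to -1.12 ± 0.47 for Fdft1, with adjusted p from 0.328 to 0.422. The 17 enzymes were all below 0, with a median of -1.16, against 0.03 over all genes tested. With each array centred on its median 15 of 17 were below 0, where the median of all genes was 0.17. Without wildtype replicate 1, Ggps1 (0.02), Lss (0.27), Ebp (0.05) and Dhcr7 (0.51) were above 0, and the other enzymes stayed below 0. In the interaction as fitted, none of the other lists held a call. Values were above 0 in 13 of 13 endothelial markers (median 1.42, 12 with an unadjusted p under 0.05) and 11 of 11 stellate cell and fibroblast markers (0.69). They were also above 0 in 17 of 17 cell cycle genes (0.97) and 12 of 15 macrophage markers (0.67). The clock and feeding-time genes had a median of -0.89, with 10 of 22 at an unadjusted p under 0.05. The part of these lists in the enzyme values was not tested. Insig2 had 1.27 ± 0.68 (adjusted p = 0.478), with 1.86 without wildtype replicate 1 and 0.68 without replicate 2. Without wildtype replicate 2 Nsdhl was called (-2.65 ± 0.42, adjusted p = 0.0496, 0.064% of all genes lower), and the median of the 25 was -1.60. Without wildtype replicate 1 none was called (1.24% of all genes) and the median was -0.38.

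The wildtype arrays differed from each other along most of the pathway. Replicate 1 was the lowest of the 11 arrays in 18 of the 25 genes and in 14 of the 17 enzymes, against 9.0% of all genes tested. Replicate 2 was above replicate 1 in 23 of the 25 genes, against 40.6% of all genes, and by over 1 log2 unit in 15, against 3.76%. The median difference, replicate 2 minus replicate 1, was 1.49 over the 25 genes and -0.03 over all genes tested. With 1 array on each side these are descriptions without a test.

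The sizes varied along the pathway. Replicate 2 exceeded replicate 1 by 6.14-fold for Dhcr7, 5.0-fold for Lss, 4.66-fold for Sqle, 4.6-fold for Nsdhl, 4.16-fold for Insig1 and 4.07-fold for Hmgcs1. Ggps1, Ebp, Hsd17b7 and Mvd differed by 1.07-fold to 1.23-fold. Stard4 and Aacs went the other way, with log2 differences of -0.26 and -1.39. The median difference was 0.98 over the 8 enzymes up to squalene and 1.68 over the 9 enzymes after it.

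**Figure D4:**
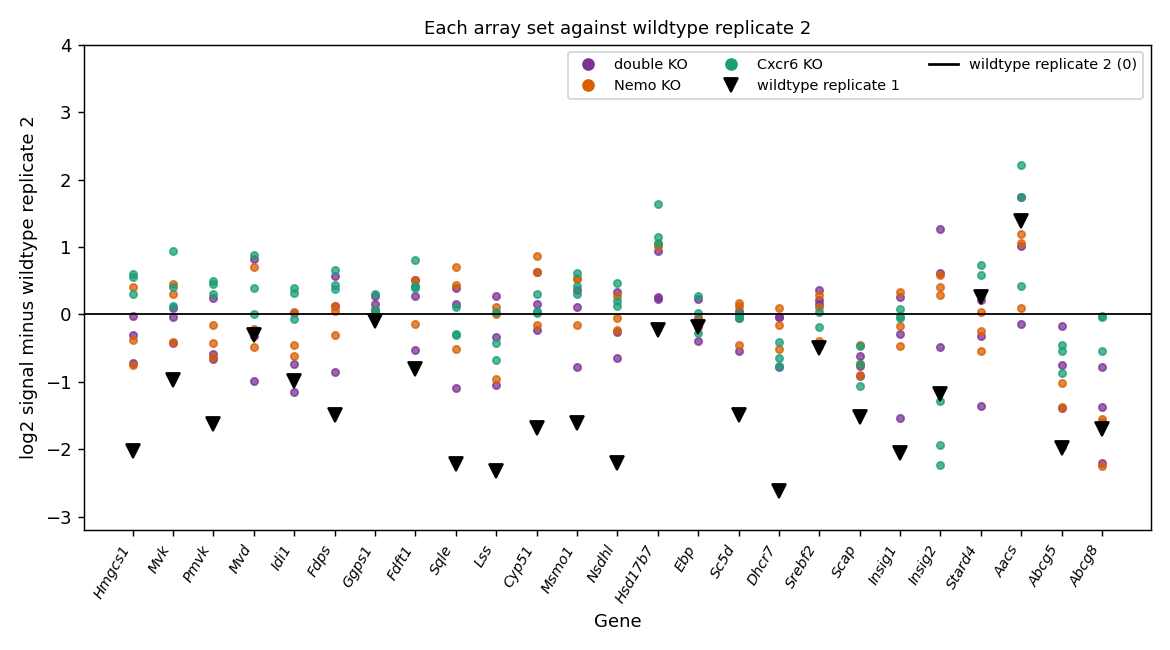
Log2 signal of each of the 25 genes on the other 10 arrays minus its signal on wildtype replicate 2 (y axis, the line at 0 is wildtype replicate 2), with genes along the x axis by role. Coloured points are double KO, Nemo KO and Cxcr6 KO arrays and black triangles are wildtype replicate 1, which is below the line in 23 of the 25 genes and above it in Stard4 and Aacs.

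The mean log2 signal over the 17 enzymes was 11.90, 11.49 and 10.97 in double KO, 11.87, 11.74 and 11.19 in Nemo KO, 11.71, 11.72 and 12.05 in Cxcr6 KO, and 10.24 and 11.58 in wildtype. Wildtype replicate 2 thus lay among the knockout arrays, and wildtype replicate 1 below all of them. Smaller differences of the same kind lay inside other groups, since double KO replicate 3 was the lowest of its group in 23 of the 25 genes and Nemo KO replicate 3 in 21. Shares over all genes were not computed for these within-group counts. Cxcr6 KO replicate 3 was the highest of all 11 arrays in 10 of the 25 genes, against 13.2% of all genes tested.

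Some other gene lists also differed between the wildtype arrays. All 15 genes of SREBP1 and fatty acid synthesis were higher in replicate 2, with a median difference of 1.87, and their mean log2 signal was 14.21 in replicate 2 and 12.14 in replicate 1. Over the groups this list averaged 13.72 ± 0.55 in double KO, 13.48 ± 0.24 in Nemo KO and 13.92 ± 0.15 in Cxcr6 KO (SD, n = 3 each), and 13.17 ± 1.47 in wildtype (n = 2). All 17 cell cycle genes and all 15 macrophage markers were higher in replicate 2 as well, with medians of 1.25 and 0.91. Of 12 hepatocyte markers 4 were higher (median -0.03), and of 13 endothelial markers 6 (-0.03). Of 25 other sterol pathway genes 13 were higher (0.0008), and of 9 LXR targets 5 (0.0024). Of 22 clock and feeding-time genes 14 were higher (0.57). The part of macrophages, dividing cells or the feeding-time genes in the difference was not tested.

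**Figure D5:**
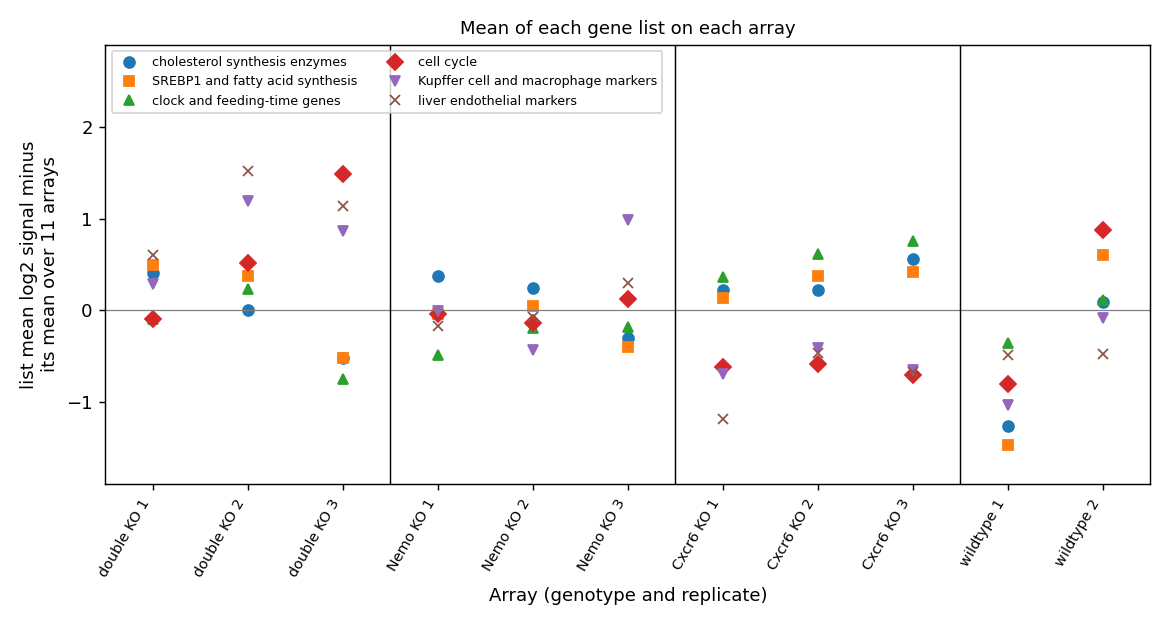
Mean log2 signal of 6 gene lists on each of the 11 arrays, minus the list's mean over the arrays (y axis), with vertical lines between genotypes and a symbol for each list. The cholesterol synthesis enzymes (circles) and the genes of SREBP1 and fatty acid synthesis (squares) are both at their lowest on wildtype replicate 1. So are the cell cycle genes (diamonds) and the macrophage markers (triangles pointing down), while the endothelial markers (crosses) differ little between the wildtype arrays.

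Most of the enzymes varied together from array to array. The Pearson correlation of each with the mean of the other enzymes had a median of 0.90 over the 11 arrays, from 0.32 for Ggps1 to 0.97 for Msmo1, against a median of -0.05 for all other genes with the enzyme mean. Without wildtype replicate 1 the median was 0.80, from -0.09 for Ggps1 to 0.96 for Fdft1, against a median of 0.09 for all other genes. Dhcr7 had 0.79 over the 11 arrays and 0.34 without that array. Insig1 tracked the enzymes at 0.95, and at 0.89 without that array. Insig2 did not, with -0.09 and -0.48 without that array. Srebf2 had 0.50 and 0.19, while Stard4 had 0.38 and, without wildtype replicate 1, 0.86. The genes were read on the same arrays, so these values share samples and groups, and they carry no test.

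The 6 genes outside the list with the highest correlation to the enzyme mean over the 11 arrays were Cyp2r1 (0.93), a vitamin D hydroxylase, Rdh11 (0.92), a retinol dehydrogenase, Slc19a2 (0.91), a thiamine transporter, Gpam (0.90), a glycerol phosphate acyltransferase, Gm6781 (0.89) and Tlcd2 (0.89). Without wildtype replicate 1 they had 0.66 for Tlcd2 to 0.87 for Gm6781. Rdh11 read 13.57, 13.07 and 12.35 in double KO, 13.04, 13.29 and 12.39 in Nemo KO, 13.07, 13.01 and 13.41 in Cxcr6 KO, and 10.62 and 13.73 in wildtype. These genes were chosen on all 11 arrays, so a low value on wildtype replicate 1 is part of the choice.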

How the data were processed

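RNA of 11 hepatocyte samples was measured on whole-transcript arrays, 300 ng of total RNA each, per the labels' protocols. The deposited values are log2 signals, made by the authors with Affymetrix Expression Console, RMA (background correction, quantile normalization, probe summary) and Transcriptome Analysis Console, per the submitters' processing notes. RMA forces the arrays' distributions towards each other. No source used here gives the genome build of the rows.

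Of 65956 rows, 30604 had 1 gene symbol in the platform annotation and 2146 several, of which 612 held symbols of a single gene and were kept. Symbols were updated through RefSeq, with 23430 rows matched. Each gene was read from the row with the highest mean, and genes were tested where a group mean reached the median row mean of 5.27. Group means of 4 genotypes were fitted with limma 3.58.1 in R 4.3.3 over all 18672 genes, with 5 contrasts and Benjamini-Hochberg adjustment at 5%. The limma fit was tested on simulated data, for the contrast of double KO against Cxcr6 KO. The alternatives were scaling, filter, row choice, variance model, groups fitted, replicate block and each array left out.

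The genes and lists were chosen with earlier results of these data known. All genes of the list were named, with up to 3 called genes from each further list and the 6 most like the enzyme mean.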

Additional observations from a re-analysis of the deposited data

How the results depend on the processing

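The number of the 25 genes called in double KO against Cxcr6 KO was 2 when only these groups were fitted (Insig2, and Hmgcs1 at -0.84, adjusted p = 0.0392). With single arrays left out, it was 0 to 2 in that comparison, 0 to 9 in Nemo KO against wildtype, 0 to 5 in Cxcr6 KO against wildtype and 0 to 1 in the interaction, the upper ends of the last 3 coming from leaving out wildtype replicate 2. In 4 of the 5 comparisons the count was 0 as fitted, so a count that stays at 0 says nothing about stability. No gene with an unadjusted p under 0.05 as fitted changed sign under any alternative run. The causes were not tested.

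Over all genes, the counts with single arrays left out ran from 116 to 2339 in double KO against Cxcr6 KO (1363 as fitted), 0 to 2368 in Nemo KO against wildtype (29), 19 to 164 in double KO against Nemo KO (110), 8 to 499 in Cxcr6 KO against wildtype (47) and 0 to 232 in the interaction (0). Fitting only the groups compared gave 2797, 0, 11 and 0 in the first 4 of these. Centring each array on its median gave 1259 in Nemo KO against wildtype, 202 in double KO against Nemo KO and 28 in Cxcr6 KO against wildtype. It also split the calls of double KO against Cxcr6 KO into 646 higher and 451 lower, against 632 and 731 as deposited. Without a filter Nemo KO against wildtype had 7 calls, with the stricter filter 83, with quantile normalization 11 and with the trend 6, and Cxcr6 KO against wildtype had 24 without a filter.

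The deviations of same-numbered samples of different groups had r from -0.28 to 0.28 over 15 pairs, 6 of them over 0.1. With so few arrays per group, these values cannot tell whether the numbers pair the samples. With the replicate number as a block, the genes called numbered 1 in double KO against Cxcr6 KO and 0 in the other comparisons, as without it, while over all genes the calls numbered 1462, 0, 61, 24 and 0.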
